A study of Mus musculus with 11 samples.

Results

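Of 5081 CBX7 peaks in mouse embryonic stem cells (ESCs), 1154 (22.7%) shared no base with any of the 4180 RING1B peaks called in the same cells. These CBX7 peaks without RING1B are the regions described here, and they were chosen by overlap with RING1B alone. The other 3927 CBX7 peaks overlapped a RING1B peak by at least 1 base and served as the comparison. All coordinates are in the mm9 build of the mouse genome.

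CBX7 is a chromodomain protein of Polycomb repressive complex 1 (PRC1) that reads trimethylated lysine 27 of histone H3. RING1B is the E3 ligase shared by canonical and non-canonical PRC1, and CBX proteins attach to it through their C-terminal PcR box. CBX6 is a paralogue of CBX7 with the same domains. PRC1 is known in ESCs for occupying CpG-rich promoters of developmental regulators that are silent or nearly so.

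The cells were E14Tg2A, an established mouse ESC line, grown without feeders on gelatin in serum and LIF in every group. ChIP-seq was analysed for CBX7 in 1 sample, for RING1B in 1 sample, and for the HA tag in 2 samples of ESCs whose endogenous CBX6 carried a C-terminal 3×HA tag (CBX6-3×HA; per the methods, an edited clonal line). RNA-seq was analysed in 2 samples with a control short hairpin (shCtl) and 2 with a hairpin against Cbx6 (shCbx6), delivered by lentivirus. The anti-HA and IgG control immunoprecipitations were not analysed here. Per the sample notes the HA and CBX7 DNA was recovered with a commercial high-sensitivity kit and the RING1B DNA by another protocol, whereas the methods name that kit for the CBX6-3×HA line only, so the CBX7 and RING1B lists may differ in preparation as well as in antibody. With 1 CBX7 and 1 RING1B sample the division of peaks has no replicate check, and a peak list does not show signal below the caller's threshold: a missing RING1B peak is a call not made. In the RNA libraries Cbx6 was at 17.4 and 14.9 FPKM in shCtl and at 9.53 and 5.40 FPKM in shCbx6, the lower value in replicate 2. The 10 ESC markers summed to 7803 and 8899 FPKM in shCtl and to 7153 and 6110 FPKM in shCbx6, so both shCbx6 libraries were below both shCtl libraries. Dppa5a alone gave 4580, 5397, 4544 and 3601 FPKM of these sums. In 7 of the 10 both shCbx6 libraries were below both shCtl libraries, in Sox2 and Fgf4 the groups overlapped, and Utf1 was above, at 136 and 191 FPKM in shCtl and at 195 and 254 FPKM in shCbx6. The 7 fibroblast markers summed to 1.72 and 1.69 FPKM in shCtl and to 1.37 and 4.67 FPKM in shCbx6, most of it Thy1, and the 5 mesoderm markers to 0.62 and 0.47 FPKM and to 0.81 and 1.18 FPKM. The 6 primitive endoderm markers summed to 2.13 and 1.94 FPKM and to 1.84 and 2.72 FPKM, and the 4 neuroectoderm markers to 39.8 and 32.2 FPKM and to 34.7 and 27.3 FPKM. Tubb3 alone gave 35.2, 29.1, 25.4 and 21.0 FPKM of the neuroectoderm sums and was lower in both shCbx6 libraries. Nes (0.67 and 0.72 FPKM in shCtl, 1.59 and 3.27 FPKM in shCbx6) and Pax6 (1.47 and 0.57 FPKM, 5.51 and 1.82 FPKM) were higher in both. In Map2 the groups overlapped. The 6 trophectoderm markers summed to 5.08 and 3.76 FPKM in shCtl and to 9.48 and 13.8 FPKM in shCbx6, and none of them was at 0 in any library. Tfap2c alone was at 2.84 and 2.21 FPKM in shCtl and at 7.41 and 9.04 FPKM in shCbx6. The other 5 markers summed to 2.24 and 1.55 FPKM in shCtl and to 2.08 and 4.77 FPKM in shCbx6. That sum was above both shCtl libraries in shCbx6 replicate 2 only, but Eomes gave 2.12, 1.42, 1.63 and 1.92 FPKM of it. Only in Eomes did the groups overlap. In Cdx2, Elf5, Hand1 and Gata3, as in Tfap2c, both shCbx6 libraries were above both shCtl libraries. Apart from Tfap2c these were at low levels, for example Hand1 at 0.05 and 0.02 FPKM in shCtl and at 0.21 and 1.80 FPKM in shCbx6.

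The sequences at the centers of 5 CBX7 peaks without RING1B are shown because they differ in base composition and position. Each is the central 300 bases of the peak, on the + strand of mm9, with every CpG dinucleotide in capitals.
Fgf11: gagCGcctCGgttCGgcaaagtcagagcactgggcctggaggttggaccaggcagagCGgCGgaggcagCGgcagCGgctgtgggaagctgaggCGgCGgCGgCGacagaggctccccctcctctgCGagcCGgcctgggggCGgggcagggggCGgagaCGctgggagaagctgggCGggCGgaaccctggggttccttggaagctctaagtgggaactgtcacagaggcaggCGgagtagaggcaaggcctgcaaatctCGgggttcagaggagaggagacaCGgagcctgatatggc
Ism2: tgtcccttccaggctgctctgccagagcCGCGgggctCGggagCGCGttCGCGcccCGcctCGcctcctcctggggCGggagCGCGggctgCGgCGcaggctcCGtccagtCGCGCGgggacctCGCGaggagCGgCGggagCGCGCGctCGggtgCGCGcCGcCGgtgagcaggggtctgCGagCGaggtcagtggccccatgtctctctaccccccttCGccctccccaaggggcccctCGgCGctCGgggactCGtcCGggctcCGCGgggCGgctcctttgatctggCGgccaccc
Cdkn2b: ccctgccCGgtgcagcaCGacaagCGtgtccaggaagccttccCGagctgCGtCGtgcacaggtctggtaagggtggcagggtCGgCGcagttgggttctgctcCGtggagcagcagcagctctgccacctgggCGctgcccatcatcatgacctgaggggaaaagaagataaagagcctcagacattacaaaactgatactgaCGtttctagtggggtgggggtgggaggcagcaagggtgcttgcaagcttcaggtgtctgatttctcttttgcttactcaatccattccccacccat
Sdc4: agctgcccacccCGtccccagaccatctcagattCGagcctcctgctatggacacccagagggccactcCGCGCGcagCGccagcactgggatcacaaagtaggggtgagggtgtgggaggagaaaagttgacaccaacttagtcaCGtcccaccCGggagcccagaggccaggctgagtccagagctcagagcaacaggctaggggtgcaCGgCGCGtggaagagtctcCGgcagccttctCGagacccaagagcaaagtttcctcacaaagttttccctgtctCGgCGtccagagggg
Myof: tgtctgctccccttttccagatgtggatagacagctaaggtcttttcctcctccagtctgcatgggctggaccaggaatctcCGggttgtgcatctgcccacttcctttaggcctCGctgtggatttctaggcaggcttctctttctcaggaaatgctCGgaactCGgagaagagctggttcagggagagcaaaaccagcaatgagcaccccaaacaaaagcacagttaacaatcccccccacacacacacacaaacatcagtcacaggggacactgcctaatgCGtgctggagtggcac
The Fgf11 window (chr11:69616325-69616624) lies between genes just upstream of the start site of a gene for an intracellular fibroblast growth factor, and it holds 21 CpG. The Ism2 window (chr12:88640658-88640957), upstream of a gene for a secreted isthmin protein, holds 42 CpG at a GC content of 77.3%. The Cdkn2b window (chr4:88953071-88953370) is centered in a coding exon of the gene for the CDK4/6 inhibitor p15 and holds 11 CpG. The Sdc4 window (chr2:164268171-164268470) is in an intron of the gene for the cell surface proteoglycan syndecan 4, holds 15 CpG, and comes from a peak that met neither CBX6 list. The Myof window (chr19:37953316-37953615), between genes and far from any start site, holds 5 CpG.

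CBX7 peaks without RING1B were weak and narrow within the CBX7 list. The peak caller's score is −10 times the log10 of its p-value, so a higher score is a clearer peak. The members scored 80.57 in the median, with a lowest value of 50.05, quartiles of 61.8 and 117 and a highest value of 770.3. CBX7 peaks with RING1B scored 502 in the median. Among the members 770 (66.7%) scored under 100 and 21 scored 300 or more. Their median width was 1299 bp, against 2414 bp for CBX7 peaks with RING1B. Of the CBX7 peaks with RING1B, 1406 scored under 300, and these served as a second comparison closer in score.

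The rule's edge was sharp in bases but not in kind. The members closest to a RING1B peak were separated from it by 10 bp (near 5S_rRNA, chromosome 13, score 65.98), 17 bp (Foxd1, a forkhead factor, score 68.55) and 21 bp (Gm16258, score 67.92). The CBX7 peaks with the least overlap shared 18 bp (AC152987.1, score 52.98), 25 bp (Dlx6os1, score 93.11) and 63 bp (Igf2, an imprinted growth factor gene, score 55). The median member lay 84005 bp from the nearest RING1B peak. A gap under 1 kb was found for 85 members, a gap under 5 kb for 192 (16.6%), and a gap over 100 kb for 535 (46.4%).

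**Figure D1:**
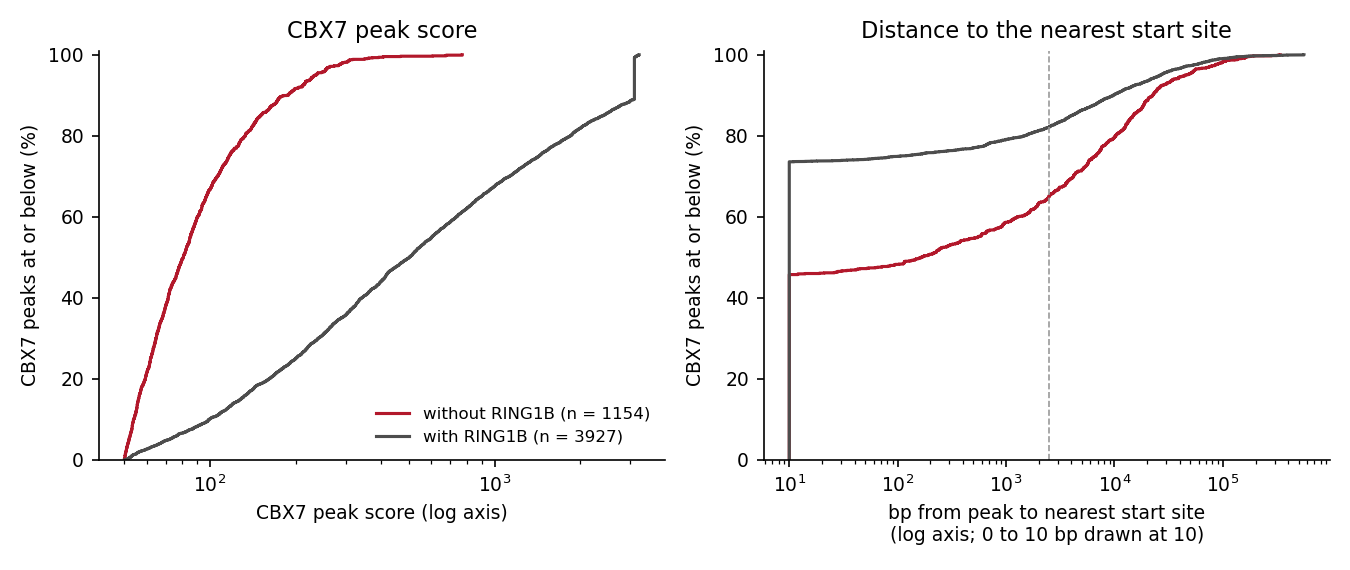
The left panel plots the cumulative percent of CBX7 peaks against peak score (log axis), and the right panel against distance in bp to the nearest annotated start site (log axis, dashed line at 2.5 kb), for peaks without RING1B (red, n = 1154) and with RING1B (gray, n = 3927). Peaks without RING1B lie at lower scores (median 80.57 against 502) and fewer of them reach a start site (65.3% against 82.2% within 2.5 kb).

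A majority of the members lay near an annotated start site, though a smaller share than of CBX7 peaks with RING1B. Within 2.5 kb of an annotated transcription start site were 753 of 1154 members (65.3%, 95% Wilson interval 62.5 to 67.9), against 82.2% of CBX7 peaks with RING1B, a difference of −16.9 percentage points (Newcombe interval −20.0 to −14.0). Against the peaks with RING1B that scored under 300, of which 76.7% were near a start site, the difference was −11.5 points (−15.0 to −7.96). A start site lay inside 520 members (45.1%), and 54 members were more than 50 kb from any start site. All intervals cover counting error only, since peaks of 1 sample are not replicates. Within bands of score the difference in the start-site share was −16.0 points (−22.8 to −8.55) for scores of 50 to 75, and its interval included 0 in the 3 higher bands, for example −4.14 points (−10.5 to 1.88) for scores of 100 to 200. The center of the peak fell in an intron for 470 members, between genes for 336, in a coding exon for 205, in an untranslated region for 109 and in another exon for 34.

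The members were less rich in CpG than CBX7 peaks with RING1B at nearly the same GC content. The observed-to-expected CpG ratio over the whole peak had a median of 0.51 in members and reached 0.6 or more, a value often used for CpG islands, in 351 of 1154 (30.4%), against 43.1% of CBX7 peaks with RING1B (difference −12.6 points, −15.7 to −9.52). The difference was −12.3 points (−15.9 to −8.52) against peaks with RING1B scoring under 300. Within bands of score it was −13.5 points (−21.0 to −6.22) for scores of 50 to 75 and −10.8 points (−17.4 to −3.93) for 100 to 200, while the intervals included 0 for 75 to 100 (−7.70 points, −17.0 to 1.6) and for 200 or more (−7.71 points, −16.7 to 2.41). The median GC content of members was 56.1%. The central 300 bases held a median of 13 CpG in members and 20 in CBX7 peaks with RING1B. The tetramer CGCG was in the central window of 51.6% of members, of 70.2% of CBX7 peaks with RING1B (difference −18.6 points, −21.8 to −15.4), and of 58.6% of the members near a start site.

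Words of transcription factor sites, searched on both strands of the same 300-base windows, showed smaller differences. The KLF and SP word GGGCGGGG was in 9.45% of member windows and in 12.6% of windows of CBX7 peaks with RING1B (difference −3.13 points, −5.02 to −1.05). The NRF1 word GCGCANGCG was in 2.17% and 3.49% (difference −1.32 points, −2.25 to −0.18). The E-box CACGTG, the word of MYC/MAX and MGA/MAX, was in 6.15% and 5.27%, and the E2F word TTCCCGC in 6.67% and 6.88%, with intervals of the difference that included 0. The intervals also included 0 for ETS (CCGGAAGT), YY1 (GCCATNTT), the octamer (ATGCAAAT), the CTCF core (AGGGGGCGC) and the REST word (GGACAGCGC), each in under 3% of member windows. Among peaks near a start site the intervals included 0 for GGGCGGGG (−4.64 to 0.38 points) and for GCGCANGCG (−2.40 to 0.15 points) as well. GGGCGGGG and GCGCANGCG are themselves rich in C and G, and their shares were not adjusted for CpG content.

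Position and composition went together among the members. The 753 members near a start site had a median CpG ratio of 0.55, and 294 of them (39.0%) reached 0.6. The 401 members away from start sites had a median ratio of 0.42, and 57 (14.2%) reached 0.6, a difference of 24.8 points (19.7 to 29.5). The 192 members within 5 kb of a RING1B peak had a median GC content of 51.4% and a CpG ratio of 0.40, and 89 (46.4%) were near a start site, against 69.0% of the other 962 members. By chromosome the members' share of CBX7 peaks ran from 14.0% on X (19 of 136) to 28.6% on chromosome 4 (95 of 332). Of the 19 members on X, 16 met neither CBX6 list. Another member lay within 10 kb of 154 members.

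CBX6 was present at many of these peaks, and the 2 anti-HA lists differed in how many. Replicate 1 has 21865 peaks and replicate 2 has 5103, so the lists were read separately. A replicate 1 peak overlapped 669 members (58.0%, 55.1 to 60.8) and a replicate 2 peak overlapped 372 (32.2%, 29.6 to 35.0). Both lists met 246 members, only replicate 1 met 423, only replicate 2 met 126, and 359 (31.1%) met neither. For CBX7 peaks with RING1B the shares were 78.7% in replicate 1 and 84.1% in replicate 2, and 6.90% met neither.

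The 2 lists gave different answers once peaks were compared within bands of CBX7 score. In replicate 1 the members' share was lower than that of CBX7 peaks with RING1B by 20.7 points over all scores (−20.7, −23.9 to −17.6). The difference in replicate 1 was 2.07 points (−5.74 to 9.79) for scores of 50 to 75, 4.79 points (−4.57 to 14.2) for 75 to 100, 3.8 points (−3.07 to 10.4) for 100 to 200 and −5.77 points (−14.9 to 1.10) for 200 or more. Each of these intervals included 0. In replicate 2 the difference was −51.8 points (−54.7 to −48.9) over all scores. It was −24.9 points (−32.1 to −17.6), −21.2 points (−30.3 to −11.6), −18.1 points (−24.9 to −11.1) and −28.1 points (−38.0 to −19.3) in the same 4 bands. The members and the CBX7 peaks with RING1B had close median scores in the lower bands, for example 129.7 and 142.3 at scores of 100 to 200, but not at 200 or more, where the medians were 251.72 and 813.05. In the 3 lower bands the members' share was thus lower in replicate 2, and no difference was detectable in replicate 1.

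**Figure D2:**
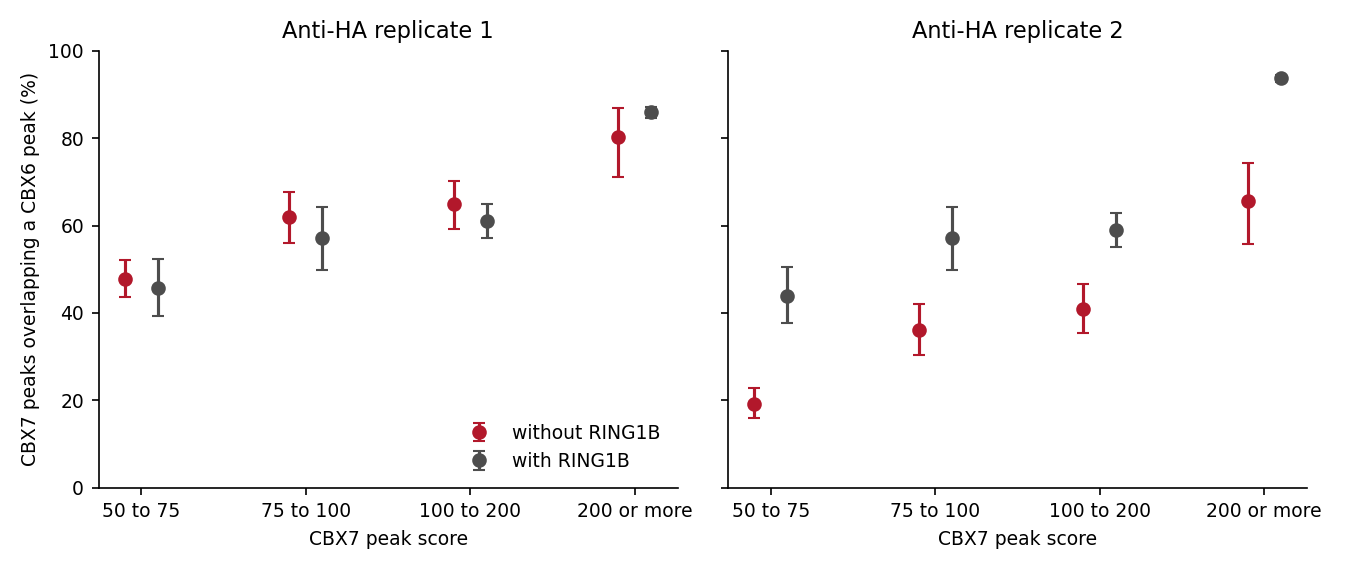
The percent of CBX7 peaks that overlap a CBX6 peak is plotted on the vertical axis for 4 bands of CBX7 peak score, in anti-HA replicate 1 (left) and replicate 2 (right), for peaks without (red) and with RING1B (gray); bars are 95% Wilson intervals. The red and gray intervals overlap in every band of replicate 1 and are separate in every band of replicate 2, for example 19.1% against 44.0% at scores of 50 to 75.

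Members near a start site met CBX6 more often than the others, mostly in replicate 1. Replicate 1 overlapped 67.9% of the 753 members near a start site and 39.4% of the 401 others, a difference of 28.5 points (22.5 to 34.1). Replicate 2 overlapped 34.7% and 27.7%, a difference of 6.98 points (1.33 to 12.4). Of the members within 5 kb of a RING1B peak, replicate 1 overlapped 34.4% against 62.7% of the members farther away (difference −28.3 points, −35.3 to −20.7). In replicate 2 the shares were 37.5% and 31.2%, and no difference was detectable (6.31 points, −0.88 to 13.9). The 4 CBX6 classes also differed in sequence. The CpG ratio reached 0.6 in 45.1% of members in both lists, in 37.1% of those in replicate 1 only, in 24.6% of those in replicate 2 only and in 14.5% of those in neither. Median GC content was 58.8% for members in replicate 1 only and 50.8% for members in replicate 2 only. The median CBX7 score was 102 for members in both lists and 68.1 for members in neither.

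The 10 highest-scored members near a start site were at genes of varied function. Spsb1, an adaptor of a ubiquitin ligase, had the highest score of all (chr4:149327182-149330562, 770.3), over its start site and 364477 bp from the nearest RING1B peak. Its CBX6 scores were 123 in replicate 1 and 85.1 in replicate 2. Efs, a docking protein of the Cas family, came next (chr14:55543942-55546801, 676.71), with no CBX6 peak in either list. The Fgf11 peak (chr11:69613654-69619296, 605.74) was the widest of all members at 5643 bp and had CBX6 scores of 517 and 198. Ddit4, an inhibitor of mTORC1 signaling, scored 407.79, and Kdelr3, a receptor that returns proteins to the endoplasmic reticulum, scored 372.62. Both met CBX6 in replicate 1 only. The Kdelr3 peak was 2554 bp from a RING1B peak. Pcsk2, a prohormone convertase, BC068157, and Celsr1, a cadherin of planar cell polarity, scored 358.06, 349.43 and 349.12, and each met CBX6 in both lists. Ism2 scored 391.29 and had CBX6 in replicate 1 only.

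The Cdkn2b and Cdkn2a locus on chromosome 4, which encodes CDK inhibitors, held 4 members. They lay at chr4:88925425-88926148 (score 74.95), chr4:88947551-88950795 (674.91), chr4:88951144-88955297 (467.26) and chr4:88955561-88957065 (257.83). Their gaps to the nearest RING1B peak were 815, 5067, 8660 and 13077 bp, so a RING1B peak lies in the same locus. All 4 met CBX6 in replicate 2, with scores of 3100, 1029, 1550 and 1550, while replicate 1 met only the latter 2, with scores of 77.2 and 180. Cdkn2b was at 0.18 and 0.18 FPKM in shCtl and at 0.45 and 1.10 FPKM in shCbx6, and did not enter the test. Cdkn2a was at 2.96 and 1.93 FPKM in shCtl and at 3.05 and 4.90 FPKM in shCbx6.

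The highest-scored members near a start site that met neither CBX6 list were at Efs, Sdc4 (308.42), Synpo (272.4), an actin-associated protein, Mapk8ip2 (259.48), a scaffold of JNK signaling, and Cidea (250.38), a lipid droplet protein. Among members over 50 kb from a start site the highest scores were 303.07 (chr5:140447626-140449802, in a coding exon of Elfn1, a postsynaptic adhesion protein), 149.62 (chr19:37952629-37954303, Myof the gene with the nearest start site) and 144.76 (chr17:85863574-85864799, Six3 the gene with the nearest start site). The last lay 8656 bp from a RING1B peak and met CBX6 in both lists.

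By the study's definition of a target, a gene with a peak between 2.5 kb upstream of its start and its end, 935 members lay in a gene's window and 219 in none. These members gave 914 target genes with an FPKM value, of which 59 had 2 or more members and 734 had a member within 2.5 kb of the start of any annotated transcript. A RING1B peak was also present elsewhere in the window of 206 target genes (22.5%). The genes with most members were those of the protocadherin gamma cluster, annotated with 6 at Pcdhgc5, where overlapping transcripts share one window. Among the 8 genes with 3 members were Lmx1b, a homeobox factor, Bsn, a presynaptic scaffold, Nlgn2, a synaptic adhesion protein, and Mid1, a microtubule-associated ubiquitin ligase.

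Target genes of the members were expressed at a middling level, unlike RING1B targets. Their median was 0.94 FPKM over the mean of both shCtl libraries, close to the 0.99 FPKM of all 21924 genes with coordinates, and 465 of 914 (50.9%, 47.6 to 54.1) were under 1 FPKM, against 50.0% of all genes. The 3522 RING1B targets had a median of 0.22 FPKM, with 70.4% under 1 FPKM. The 708 member targets with no RING1B peak in the window had a median of 1.51 FPKM (43.2% under 1 FPKM, 39.6 to 46.9), and the 206 with one had 0.29 FPKM (77.2%, 71.0 to 82.4). Few were highly expressed: 98 of 914 (10.7%) reached 10 FPKM, against 27.2% of all genes. Over the 745 genes with a member within 2.5 kb of a start site, 734 of them target genes, the median was 1.5 FPKM with CBX6 in both lists, 1.51 FPKM with replicate 1 only, 1.18 FPKM with replicate 2 only and 0.65 FPKM with neither. A gene with members of several of these classes was counted in each. FPKM is a level per transcript length, so these levels can be compared between genes.

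**Figure D3:**
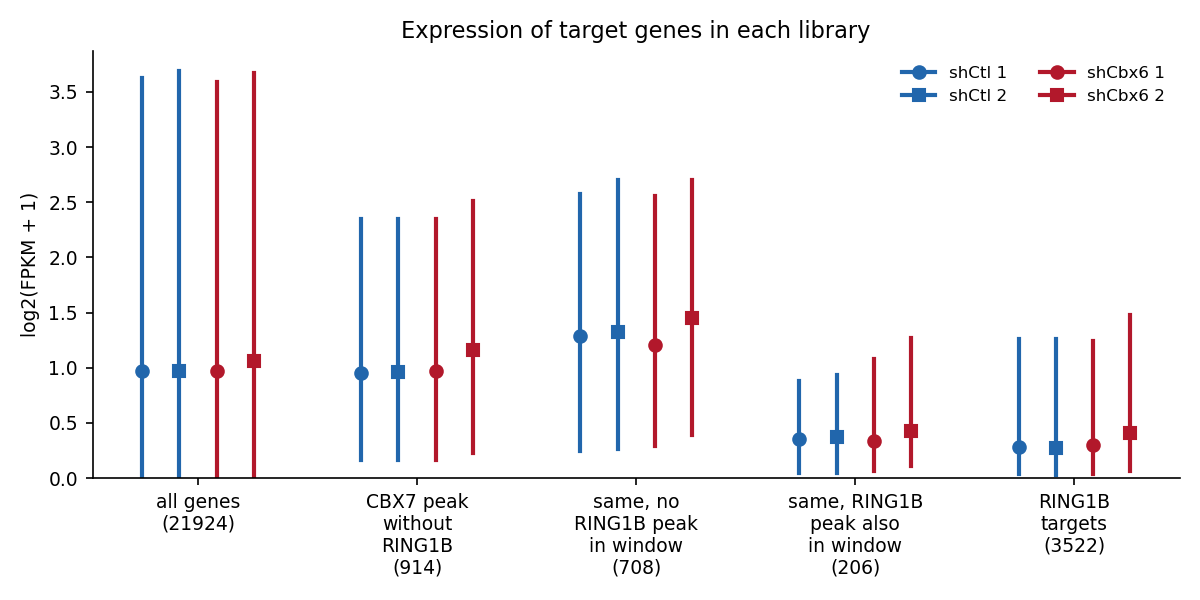
The median (symbol) and quartiles (line) of log2(FPKM + 1) are plotted for each of the 4 RNA-seq libraries, over all genes and over target genes of CBX7 peaks without RING1B, split by whether a RING1B peak is also in the gene's window, and over RING1B targets; the number of genes is in parentheses. Targets of members with no RING1B peak (708 genes, median 1.51 FPKM in shCtl) stand above those with one (206 genes, 0.29 FPKM) in all 4 libraries.

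The highest shCtl levels among target genes with a member at the start site were those of Rpl12, a ribosomal protein gene (2999 and 3642 FPKM), Snord104, a small nucleolar RNA (284 and 374 FPKM), Mt1, a metallothionein (171 and 324 FPKM), Gm5148 (178 and 223 FPKM) and Mid1 (192 and 119 FPKM). The Rpl12 member lies over the 3′ end of the gene, downstream of the start of a shorter annotated transcript (gene chr2:32817079-32820016, + strand; member chr2:32819821-32820992). Rpl12 has near-identical copies in the genome and Mid1 crosses the pseudoautosomal boundary, so their values are uncertain, and FPKM of very short transcripts such as Snord104 is unstable.

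Gene groups were read from lists of known regulators, counting members and RING1B peaks in each gene's target window. Of all 21924 genes with a value, 4.17% had a member and 16.1% a RING1B peak, and the counts below stand beside those shares as descriptions. Of 39 Polycomb complex genes with a value, 7 (17.9%) had a member in the window, among them Phc2, Auts2, Kdm2b, Pcgf5, Phc1 and Rybp, and 10 had a RING1B peak. At Phc2, a polyhomeotic subunit of PRC1, the member scored 89.62 and the gene was at 7.10 and 9.49 FPKM in shCtl and at 6.80 and 9.21 FPKM in shCbx6. Kdm2b, which recruits a non-canonical PRC1 to CpG islands, had a member scoring 66.89 and was at 44.1 and 46.7 FPKM in shCtl and at 44.1 and 37.8 FPKM in shCbx6. Both met CBX6 in replicate 1 only and had no RING1B peak in the window. Auts2, of a non-canonical PRC1, had a member and a RING1B peak.

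The windows of developmental transcription factors mostly held RING1B. Members were found at 3 of 39 Hox genes (7.69%; Hoxc13, Hoxb1 and Hoxc4), where RING1B peaks were at 36, and at 8 of 86 other homeobox genes (9.30%), where RING1B peaks were at 86. All 11 of these genes with a member had a RING1B peak as well, so each was a separate CBX7 peak beside a RING1B target. One of 50 forkhead, GATA, SOX and T-box genes (2%) had a member (Foxj1, a regulator of motile cilia, score 71.67), and 2 of 37 bHLH genes (5.41%) did. Atoh7, a retinal bHLH factor, had a member scoring 215.08 with CBX6 in both lists and no RING1B peak in the window, and was listed at 0 FPKM in all 4 libraries.

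Several signaling genes had a member that scored high among the members, whose median was 80.57, against 300.38 over all CBX7 peaks. In the FGF and MAPK list 6 of 40 genes (15%) had a member, led by Fgf11 and by Dusp5, a phosphatase of ERK (score 288.11, CBX6 in both lists). In the WNT list 7 of 57 (12.3%) did, led by Wif1, a secreted WNT inhibitor (score 214, CBX6 in both lists), and in the TGF-beta list 4 of 50 (8%), led by Tgfbr1, a type I receptor (score 210.86, CBX6 in both lists). RING1B peaks were at 21 of the FGF and MAPK genes, 46 of the WNT genes and 29 of the TGF-beta genes. No member lay in the window of any of 22 naive and core pluripotency genes, of 19 germline genes of PRC1.6 or of 46 ribosomal protein genes of the list, which does not include Rpl12. In lists of 19 to 46 genes these zeros are to be read beside the 4.17% of all genes. RING1B peaks were at 4, 15 and 1 of these genes. Of 73 neuronal genes 64 had a RING1B peak, and 6 (8.22%) had a member, each of these 6 with a RING1B peak too. Of 11 formative pluripotency genes 1 (9.09%) had a member, Dnmt3b, and of 27 imprinted genes 1 (3.70%) did, Grb10.

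Depletion of Cbx6 was compared over the 496 target genes that averaged 1 FPKM or more in shCtl or in shCbx6; the 418 others were not tested. No target gene passed limma, fitted without a replicate block, at a Benjamini-Hochberg adjusted p of 0.05, and 110 had an unadjusted p under 0.05. Over all 11592 genes tested 11 were called, which is 0.0949%, and 1352 had an unadjusted p under 0.05. With 2 libraries a group, and nothing in the labels to say that replicates were separate cultures, these p-values measure the spread between libraries only. Without shCbx6 replicate 1 the median log2 fold change was 0.18 over the target genes and 0.03 over all tested genes. Without shCbx6 replicate 2 it was −0.02 and −0.05.

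By size alone, more target genes differed than in the whole table. Of the 496, 112 (22.6%) had a mean at least 1.5-fold higher in shCbx6, where 7.63% of all tested genes did, and 59 (11.9%) had a mean at least 1.5-fold lower, where 6.56% did. Both shCbx6 libraries were above both shCtl libraries for 170 (34.3%, with 18.9% of all tested genes) and below them for 125 (25.2%, with 24.4%). The median log2 fold change on the log2(FPKM + 1) scale was 0.09 over the target genes and −0.01 over all tested genes. The excess of higher over lower target genes depended on shCbx6 replicate 2, though without it both shares stayed above those of all tested genes. Without that library 75 target genes (15.1%, with 5.54% of all tested genes with coordinates) were higher and 79 (15.9%, with 7.29%) lower, and without shCbx6 replicate 1 they were 156 (31.5%, with 11.2%) and 63 (12.7%, with 9.92%). In shCbx6 replicate 2 the trophectoderm, fibroblast, mesoderm and primitive endoderm marker sums were the highest of the 4 libraries, and the ESC and neuroectoderm sums the lowest. The neuroectoderm sum was mostly Tubb3, whereas Nes was highest in that library. The part of these markers in the counts was not tested.

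Genes at low FPKM passed 1.5-fold more often in the whole table, so the counts were split by level. Among genes whose higher group mean was 1 to 2 FPKM, 31 of 118 target genes (26.3%) and 21.1% of all tested genes with coordinates were 1.5-fold higher. At 2 to 5 FPKM the shares were 22.0% and 10.97%, at 5 to 10 FPKM 17.5% and 7.54%, and at 10 FPKM or more 24% (30 of 125) and 3.90%. For lower genes the shares were 15.3% and 15.0% at 1 to 2 FPKM, 11.3% and 9.56% at 2 to 5 FPKM, 15.5% and 6.53% at 5 to 10 FPKM, and 6.40% and 3.79% at 10 FPKM or more. Target genes of the 708 without a RING1B peak gave 19.9% higher and 12.7% lower of 433 tested. Those of the 206 with a RING1B peak as well gave 26 higher (41.3%) and 4 lower (6.35%) of 63 tested, and the difference between these groups of genes was not tested. RING1B targets, measured in the same libraries, gave 25.1% higher and 13.9% lower of 1224 tested.

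**Figure D4:**
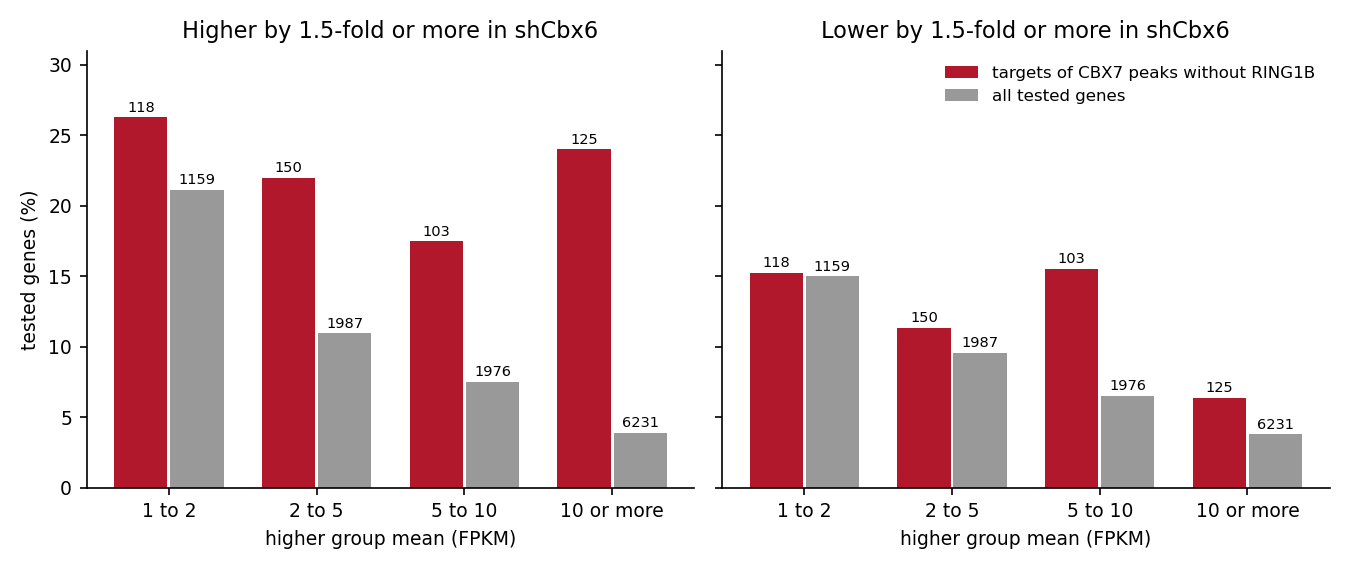
Bars give the percent of tested genes whose mean FPKM was at least 1.5-fold higher (left) or lower (right) in shCbx6 than in shCtl, by the higher of the 2 group means in FPKM, for target genes of CBX7 peaks without RING1B (red) and all tested genes with coordinates (gray); the number above each bar is the number of genes tested. The red bar exceeds the gray at 10 FPKM or more, 24% against 3.90% for higher genes. RING1B targets, not drawn, gave 19.6% higher in that band.

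The largest differences on the log2(FPKM + 1) scale among target genes whose groups did not overlap were spread over several functions. None passed limma without a replicate block. Dnmt3b, the de novo DNA methyltransferase of the formative state, was at 31.8 and 31.8 FPKM in shCtl and at 90.9 and 192 FPKM in shCbx6 (log2 fold change 2.02 ± 0.35 SE, adjusted p = 0.147 by limma). Its member, near the start site, scored 87.31 and met CBX6 in both lists. Krt8, an epithelial keratin, was at 4.81 and 7.25 FPKM in shCtl and at 12.1 and 119 FPKM in shCbx6 (log2 fold change 2.52 ± 1.00 SE, adjusted p = 0.427), most of it in replicate 2. Krt7, another such keratin, was at 0.02 and 0.15 FPKM and at 0.55 and 9.02 FPKM. Cldn6, a tight junction protein, was at 7.42 and 15.3 FPKM and at 28.7 and 81.4 FPKM (2.08 ± 0.55 SE, adjusted p = 0.264). Mt1 was at 171 and 324 FPKM and at 596 and 1143 FPKM (1.80 ± 0.43 SE, adjusted p = 0.236). In each of these genes shCbx6 replicate 2 was the higher of the pair.

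Among the lower genes Kdelr3 had the largest fall on the log2(FPKM + 1) scale, at 16.4 and 19.4 FPKM in shCtl and at 6.08 and 3.57 FPKM in shCbx6 (log2 fold change −1.73 ± 0.24 SE, adjusted p = 0.103 by limma). Rapgef3, an exchange factor for RAP1 that responds to cAMP, was at 4.04 and 3.77 FPKM and at 1.22 and 0.95 FPKM (−1.24 ± 0.17 SE, adjusted p = 0.102). Rtn1, a reticulon, was at 5.05 and 6.94 FPKM and at 2.10 and 2.36 FPKM (−1.10 ± 0.19 SE). Mcam, a cell adhesion molecule, was at 21.4 and 24.5 FPKM and at 11.8 and 9.55 FPKM (−1.04 ± 0.16 SE). Crtac1, a cartilage matrix protein whose member (score 52.46) was within the gene, was at 1.85 and 1.95 FPKM and at 0.41 and 0.43 FPKM. Its ratio of means, shCbx6 over shCtl, was 0.22, below the 0.27 of Kdelr3.

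Of the genes at the highest-scored members, Efs was at 0.59 and 0.69 FPKM in shCtl and at 1.61 and 2.97 FPKM in shCbx6 (log2 fold change 0.97 ± 0.25 SE, adjusted p = 0.259 by limma), and Sdc4 at 3.98 and 6.02 FPKM and at 7.62 and 12.7 FPKM (0.88 ± 0.29 SE). Spsb1 was at 2.5 and 2.46 FPKM and at 1.33 and 1.91 FPKM (−0.42 ± 0.19 SE). Ddit4 varied within each group, at 2.94 and 11.9 FPKM and at 6.10 and 22.9 FPKM. Dusp5 was at 1.65 and 1.76 FPKM and at 2.92 and 3.55 FPKM (0.64 ± 0.17 SE), and Tgfbr1 at 7.20 and 6.98 FPKM and at 4.35 and 4.39 FPKM (−0.59 ± 0.13 SE, adjusted p = 0.221). Fgf11 was under 1 FPKM in all 4 libraries.

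**Figure D5:**
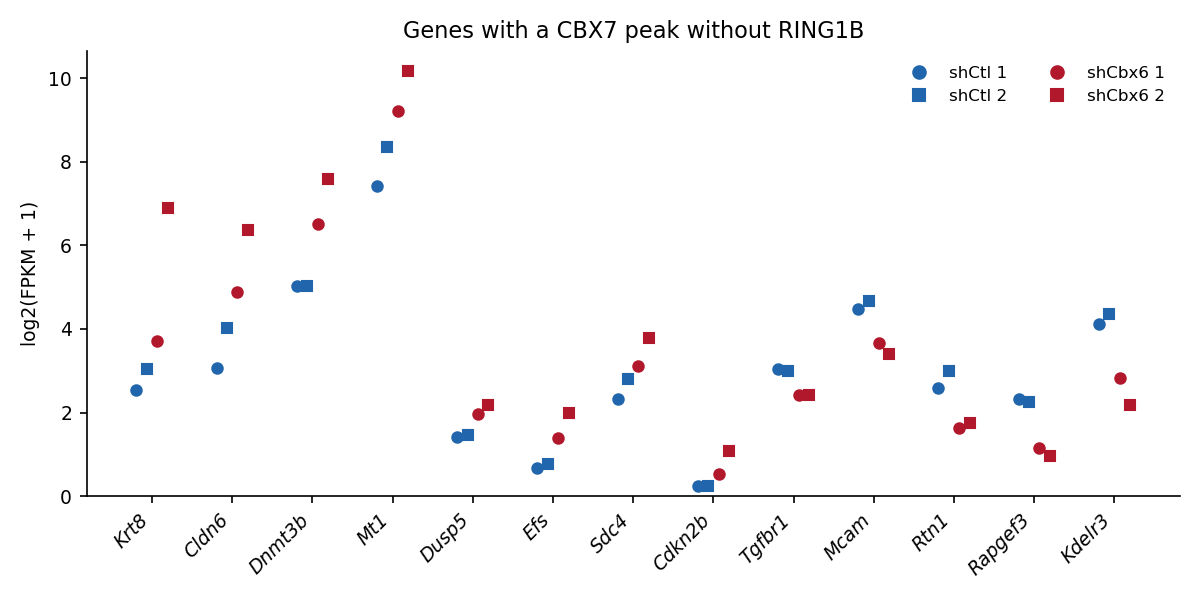
Each point is the log2(FPKM + 1) of 1 library (blue shCtl, red shCbx6, circle replicate 1, square replicate 2) for 13 target genes named in the text. In Krt8 and Cldn6 shCbx6 replicate 2 stands apart above the others, and in Kdelr3 and Rapgef3 both shCbx6 libraries lie below both shCtl libraries.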

How the data were processed

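The authors aligned ChIP-seq reads to mm9 with Bowtie, kept reads mapping to 1 place, and called peaks in each sample with MACS, changing only the shift size from its defaults. The deposited peak lists give positions and a score. For RNA-seq the authors used TopHat and Cufflinks, and the deposited values, by gene symbol for the 4 libraries, are FPKM per the labels and methods (the table itself is titled RPKM, and its values were read as FPKM); tool versions are not given in the sources used here. Neither file type gives read counts, so absolute depth is unknown. The steps of low FPKM values put the RNA libraries at relative depths of 0.956 to 1.13 of shCtl replicate 1. Of 23288 symbols, 21924 (94.1%) were matched to GENCODE vM1 genes on the same build, whose start sites were used in place of RefSeq. Overlaps needed 1 shared base. FPKM was tested as log2(FPKM + 1) with limma 3.58.1 (R 4.3.3) without a replicate block, for genes averaging 1 FPKM or more in shCtl or in shCbx6, with Benjamini-Hochberg adjustment; the code was tested on simulated data. Shares carry 95% Wilson intervals and differences Newcombe intervals. Named members and genes were taken by score, CBX6 class, gene list, size of change, FPKM level and distance. The members, gene lists and rules were chosen with earlier results of these data known. Sequences were read from the mm9 genome. The alternatives tried covered overlap, score, window, FPKM threshold, pseudocount, scaling, filter, block and each library left out. Values of some genes that the naming rule selected are not reported here.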

Additional observations from a re-analysis of the deposited data

How the results depend on the processing

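The number of members was 1069 with RING1B peaks extended by 1 kb on each side, 1644 with RING1B peaks scoring at least 100 and 1238 with an overlap of at least 0.5 of the CBX7 peak, and 384 among CBX7 peaks scoring at least 100. The share meeting CBX6 replicate 1 was 61.0% for members at least 1 kb from RING1B, 68.8% at CBX7 scores of at least 100, 33.8% with CBX6 scores of at least 100 and 51.8% with an overlap of 0.5 of the CBX7 peak. For replicate 2 the last 3 were 47.1%, 14.1% and 26.8%. The difference from CBX7 peaks with RING1B in replicate 1 was −13.1 points (−18.1 to −8.50) for scores of at least 100, −3.69 points for scores under 300, and, in score bands chosen after seeing the data, 2.07, 4.79, 3.8 and −5.77 points from low to high. In replicate 2 it kept its sign, with an interval apart from 0, under all 6 alternatives. The share near a start site was 58.7% within 1 kb, 71.6% within 5 kb, 61.1% at protein-coding starts and 74.0% at scores of at least 100. The share of target genes under the threshold was 38.8% at 0.5 FPKM, 63.0% at 2 FPKM and, at 1 FPKM, 43.2% without a RING1B peak in the window. Without any FPKM filter 264 target genes (29.8%, with 19.7% of all genes) were 1.5-fold higher and 126 (14.2%, with 12.2%) lower. At a mean of at least 10 FPKM, an alternative chosen after seeing the data, 30 were higher and 8 lower. Leaving out each library in turn gave 75 to 156 higher and 55 to 79 lower, and 0 to 25 limma calls; in such a fit the lone library of a group is assumed to vary like the other group. The highest number, 25, came without shCbx6 replicate 1. The shared replicate numbers are not known to pair the libraries (correlation of their deviations 0.28 over 11353 genes); a replicate block gave 33 limma calls among target genes (19 higher, 14 lower) and 388 among all genes. Some named genes turned sign: under quantile normalization Rpl12 (−0.0029) and Mid1 (−0.027), and, leaving out each library, Phc2 (−0.24 to 0.15), Tcf7 (−0.0093 to 0.20), Bmpr2 (−0.47 to 0.18), Rpl12 (−0.024 to 0.26), Mid1 (−0.45 to 0.51), Ddit4 (−0.0074 to 1.74) and Celsr1 (−0.23 to 0.13), none called in these fits. Of the named genes limma called 11 under the replicate block (Dnmt3b, Cldn6, Mt1, Ddit4, Sdc4, Kdelr3, Rapgef3, Rtn1, Mcam, Crtac1 and Myof) and 8 without shCbx6 replicate 1 (Dnmt3b, Pcdh1, Krt8, Krt7, Efs, Kdelr3, Rapgef3 and Myof). The cause of these changes was not tested beyond what each alternative's construction shows. The depth of the ChIP samples, which can limit the calls of weak peaks, is not known, and 2 libraries a group limit the test.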
